A study of Mus musculus with 8 samples.

Results

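The genes of the major histocompatibility complex (MHC) and of antigen presentation were examined in lung endothelial cells (ECs) of neonatal mice reared in normoxia or hyperoxia. Members were the protein-coding genes whose symbol starts with H2-, the prefix of the mouse MHC, together with B2m, Tap1, Tap2, Tapbp, Psmb8, Psmb9, Psmb10, Nlrc5, Cd74 and Ciita. The rule gave 44 of the 54532 genes in the count table. Of these 32 belong to the class I pathway, 11 belong to the class II pathway, and H2-Ke6 is an enzyme gene that only carries the symbol. Wild-type (WT) C57BL/6J pups were kept from postnatal day 0 either in room air at 21% O2 or at 80% O2, and lungs were taken on day 14. Nursing dams changed between the oxygen levels every day, and no group carried a transgene or a drug. Lung cell suspensions were depleted of cells that bound CD45 beads, which are leukocytes, and the cells that then bound CD31 beads were sequenced in bulk, 4 libraries per group. The labels do not say whether the libraries came from separate animals or pools, while sex-linked counts given below show cells of both sexes in most of them. The p-values thus measure the spread between these libraries, part of which may be technical.

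MHC class I molecules are made by nearly all nucleated cells and show peptides from the cell interior to CD8 T cells. The proteasome cuts proteins into peptides, the TAP transporter moves the peptides into the endoplasmic reticulum, and a loading complex places them in the groove of a heavy chain that is bound to beta-2-microglobulin. MHC class II molecules show peptides from the endosome to CD4 T cells and are made mainly by B cells, dendritic cells and macrophages, while ECs make little of them unless exposed to interferon gamma. NLRC5 and CIITA are the transactivators of class I and class II genes, and both pathways are raised by interferons.

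The 8 libraries held 16098086 to 18300730 counts. The EC markers Cdh5 (4121 ± 175 and 4035 ± 140 CPM in the normoxia and hyperoxia groups, SD over 4 libraries) and Pecam1, which encodes CD31 (2902 ± 120.0 and 2822 ± 112 CPM), fitted the label. CPM is the count of a gene scaled to a common library size after TMM normalization. The 8 EC markers examined did not all stay level. By the edgeR test used below, 3 of the 8 were higher in hyperoxia and 3 were lower, with log2 fold changes from -0.79 to 0.43. That share was 75%, beside 35.6% of all tested genes. Markers of alveolar type 2 cells were also present and 10 of 10 were higher in hyperoxia, with a summed level of 252 to 355 CPM in normoxia and 806 to 2413 CPM in hyperoxia, the lowest of the latter in hyperoxia 3. Xist, a transcript of female cells, had 3 counts in normoxia 2 and 5 in hyperoxia 4. Y-linked genes had 7 counts in hyperoxia 3. The other libraries had both, for instance 8457 Xist and 2252 Y-linked counts in normoxia 1, so they held cells of more than 1 pup. How many pups each library held is not given. In bulk libraries, fewer cells of a type and less RNA per cell cannot be told apart.

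RefSeq promoters were at hand for 16 of the 19 tested class I genes and 7 of the 10 tested class II genes, with none for H2-T24, Nlrc5, Tap2, Cd74, Ciita and H2-Ab1. They are shown to set out which motifs the genes of each class held, and a link between motifs and levels was not tested. The 250 bases before the transcription start were searched on both strands for GGGATTCCC (a core of the NF-kappaB site), GAANNGAAA (interferon response), TGACG (the site bound by cyclic AMP response factors), CCAAT (bound by NF-Y), TTCNNNGAA (bound by STAT factors) and AGCAAC (part of the X box bound by RFX). The stretch that holds the matches is given in lower case with the matches in capitals, 5′ to 3′ on the strand of the gene, in build GRCm38.p6.
H2-K1 (chr17:34000351-34000465, minus strand): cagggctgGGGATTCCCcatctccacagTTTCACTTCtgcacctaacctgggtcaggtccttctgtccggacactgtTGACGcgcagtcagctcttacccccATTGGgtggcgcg
H2-Q4 (chr17:35379456-35379574, plus strand): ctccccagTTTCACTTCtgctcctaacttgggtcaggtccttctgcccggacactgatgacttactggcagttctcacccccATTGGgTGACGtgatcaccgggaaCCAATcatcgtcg
H2-Q6 (chr17:35424670-35424807, plus strand): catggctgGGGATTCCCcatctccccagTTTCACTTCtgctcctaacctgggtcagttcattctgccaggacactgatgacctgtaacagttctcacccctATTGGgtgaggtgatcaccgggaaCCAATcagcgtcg
H2-Q7 (chr17:35439015-35439151, plus strand): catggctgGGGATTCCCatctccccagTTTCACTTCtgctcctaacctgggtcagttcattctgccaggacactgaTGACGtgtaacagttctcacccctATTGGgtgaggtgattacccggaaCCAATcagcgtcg
B2m (chr2:122147601-122147646, plus strand): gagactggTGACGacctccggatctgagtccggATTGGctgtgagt
H2-Aa (chr17:34287859-34287905, minus strand): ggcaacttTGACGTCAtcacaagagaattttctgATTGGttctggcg
H2-Eb1 (chr17:34305767-34305844, plus strand): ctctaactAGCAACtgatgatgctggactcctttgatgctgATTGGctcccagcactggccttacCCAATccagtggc
H2-Ob (chr17:34238809-34238860, plus strand): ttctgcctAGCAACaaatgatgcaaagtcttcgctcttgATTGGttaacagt
In H2-K1 the 4 matches are GGGATTCCC at -110, the interferon response motif on the other strand (TTTCACTTC) at -90, the cyclic AMP motif TGACG at -41 and the NF-Y motif on the other strand (ATTGG) at -16, counted from the start. H2-Q6 and H2-Q7 held the same first 2 elements, while H2-Q4 held GAANNGAAA without GGGATTCCC. In H2-Aa, TGACG and its complement overlap in the run TGACGTCA. The stretch of H2-Q4 lies in an exon of the antisense gene Gm11131.

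Among the 16 class I promoters, GGGATTCCC was in 4 (H2-K1, H2-D1, H2-Q6 and H2-Q7), GAANNGAAA in 7, TGACG in 9, CCAAT in 12, TTCNNNGAA in 2 and AGCAAC in 0. Among the 7 class II promoters, AGCAAC was in 3 (H2-Eb1, H2-Ob and H2-Oa), CCAAT in 6, TGACG in 1 (H2-Aa) and TTCNNNGAA in 1, and the other motifs were in 0. Over all 27025 promoters of the table, GGGATTCCC was in 0.311%, GAANNGAAA in 6.34%, TGACG in 17.9%, CCAAT in 34.5%, TTCNNNGAA in 7.18% and AGCAAC in 12.3%. A match describes the letters in these windows and does not show that a factor binds there.

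Of the 44 members, 29 had enough counts to be tested, 19 of class I and 10 of class II. The other 15 were silent or nearly so in this isolate. No count at all was found for 9 class I genes (H2-M1, H2-M9, H2-M11, H2-M10.1, H2-M10.3, H2-M10.4, H2-M10.5, H2-M10.6 and H2-T3). A further 4 class I genes had few counts, H2-Q1 with 1 to 15, H2-Q2 with 0 to 21, H2-M2 with 0 to 4 and H2-M10.2 with 0 to 2 per library. H2-Eb2 had 3 to 17 counts and H2-Ke6 had 0 to 4.

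The question of the comparison was whether rearing at 80% O2 changed expression in lung ECs. By the quasi-likelihood test of edgeR with Benjamini-Hochberg adjustment, 0 of the 19 tested class I genes were higher and 0 were lower, while 18.5% of all 15564 tested genes were higher and 17.1% were lower (35.6% in either direction). At an unadjusted p under 0.05 the class I genes gave 0 higher and 1 lower, H2-M3. With limma-voom 0 were higher and 0 were lower, and DESeq2 called 1 higher of the 23 that it tested. That gene was H2-Q2, with 1, 0, 2 and 6 counts in normoxia and 17, 21, 6 and 5 counts in hyperoxia. The median log2 fold change of the 19 genes was -0.028, beside -0.0040 over all tested genes. Groups did not overlap in 0 of the 19, beside 35.4% of all tested genes.

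What set the class I genes apart from most genes was the spread among the hyperoxia libraries. Hyperoxia 4 was the lowest of the 8 libraries in 18 of 19 class I genes, all but H2-M5, whereas it was the lowest in 13.6% of all tested genes. In 16 of 19 it lay at least 0.5 on the log2 scale below the normoxia mean, which held for 8.66% of all tested genes. Hyperoxia 3 was the highest library in 9 of 19 class I genes (9.75% of all genes) and hyperoxia 1 in 7 of 19 (13.6% of all genes). The SD of log2 CPM was larger in hyperoxia than in normoxia in 18 of 19, with a median of 0.12 in normoxia and 0.61 in hyperoxia. Over all tested genes it was larger in hyperoxia in 41.1%, with medians of 0.14 and 0.12. These counts describe the libraries and were not tested.

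**Figure D1:**
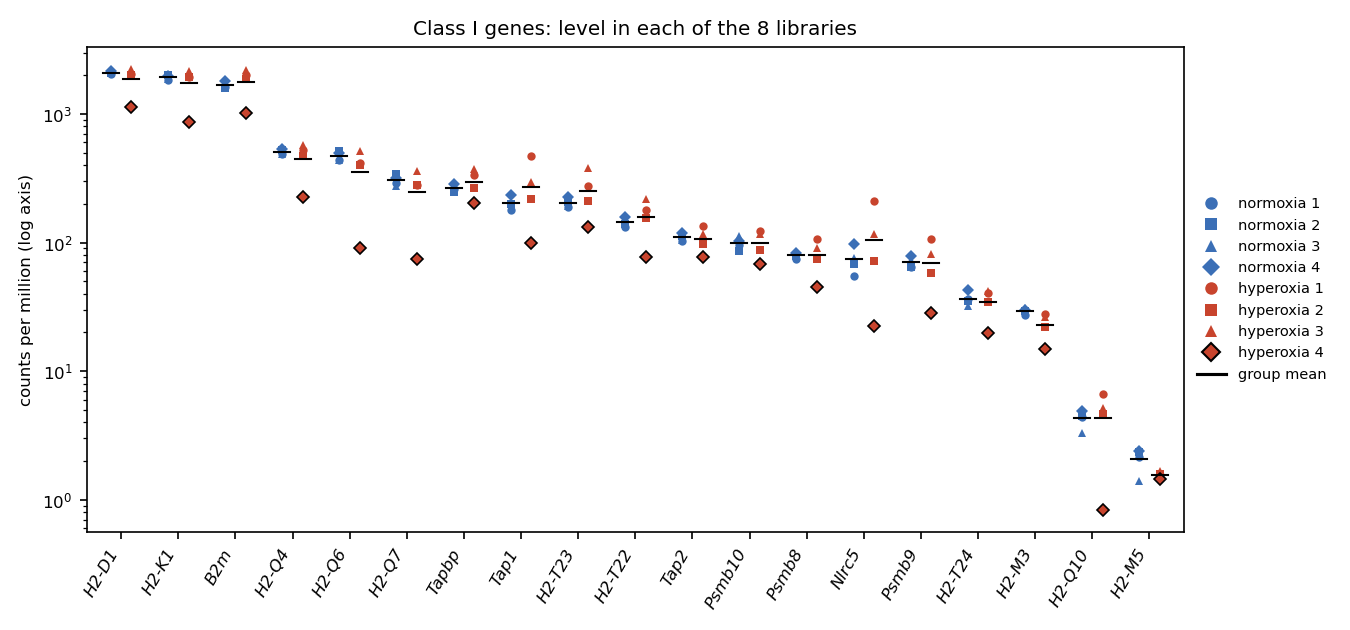
Level of the 19 tested class I genes in each library, in CPM on a log axis, with normoxia in blue, hyperoxia in red and the group mean as a bar. Hyperoxia 4, outlined in black, is the lowest point for every gene except H2-M5, for instance 866 CPM of H2-K1 against 1939.9 to 2155 CPM for hyperoxia 1 to 3.

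The classical heavy chains H2-K1 (ENSMUSG00000061232, chromosome 17, 33996017 to 34000333) and H2-D1 (ENSMUSG00000073411, chromosome 17, 35262730 to 35267499) present most peptides to CD8 T cells. Coordinates are those of the deposited table in build mm10. H2-D1 stood at 2048, 2086, 2073 and 2151 CPM in normoxia 1 to 4 and at 2052, 2021, 2236 and 1126 CPM in hyperoxia 1 to 4. The normoxia libraries were nearly equal, and hyperoxia 4 alone was low. The log2 fold change was -0.17 (SE 0.167, adjusted p 0.468), with a 95% interval from -0.54 to 0.20.

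H2-K1 stood at 1830.4, 2026, 1857 and 1981 CPM in normoxia and at 1949.8, 1939.9, 2155 and 866 CPM in hyperoxia. Hyperoxia 1 to 3 lay within or above the normoxia range, and hyperoxia 4 lay at -1.15 relative to the normoxia mean on the log2 scale. For H2-K1 the log2 fold change was -0.15 (SE 0.218, adjusted p 0.621). Without hyperoxia 4 that of H2-K1 was 0.069 and that of H2-D1 was 0.011, so the sign of both rested on this library.

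B2m (ENSMUSG00000060802, chromosome 2, 122147686 to 122153083) encodes beta-2-microglobulin, the light chain that every class I heavy chain needs to reach the surface. It stood at 1612, 1583, 1757 and 1808 CPM in normoxia and at 2020.2, 1864, 2206 and 1021 CPM in hyperoxia. Hyperoxia 1 to 3 all lay above the normoxia range and hyperoxia 4 lay below it. Over the 8 libraries the log2 fold change was 0.073 (SE 0.186, adjusted p 0.792), and without hyperoxia 4 it was 0.27 (adjusted p 0.0209).

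Per transcript length B2m was the most abundant member. In FPKM, which divides the scaled count by gene length, it had 1949 ± 130.2 FPKM over the normoxia libraries and 2057 ± 608 FPKM over the hyperoxia libraries (SD, n = 4). H2-D1 followed with 804 ± 16.9 and 717 ± 193 FPKM, and H2-K1 with 731 ± 33.5 and 659 ± 223 FPKM. These 2 classical chains held 68.2% to 76.5% of the summed heavy chain FPKM in every library. The ratio of B2m to the summed heavy chains was 0.891, 0.813, 0.961 and 0.922 in normoxia and 1.07, 1.02, 1.03 and 1.18 in hyperoxia. The groups did not overlap in this ratio, which was computed after the levels had been seen and was not tested.

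Non-classical heavy chains have narrower roles. H2-Q6 and H2-Q7 encode Qa-2 proteins, H2-T23 encodes Qa-1, which shows leader peptides of other class I chains to natural killer cells, H2-T22 is a ligand of gamma-delta T cells, and H2-M3 presents formylated peptides of bacteria and mitochondria. Of the 9 tested, 0 passed the edgeR test in either direction, with log2 fold changes from -0.41 to 0.29. The largest single departure of any class I gene was here.

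H2-Q6 (ENSMUSG00000073409, chromosome 17, 35424850 to 35430055) stood at 441, 515, 438 and 497 CPM in normoxia and at 415, 398, 516 and 90.03 CPM in hyperoxia. H2-Q7 (ENSMUSG00000060550, chromosome 17, 35439155 to 35443773) stood at 292, 344, 275 and 317 CPM and at 278, 282, 362 and 74.4 CPM. Relative to the normoxia mean on the log2 scale, hyperoxia 4 lay at -2.38 for H2-Q6 and -2.03 for H2-Q7, lower than for any other tested class I gene. Their log2 fold changes were -0.41 (SE 0.380, adjusted p 0.432) and -0.30 (SE 0.347, adjusted p 0.536), and without hyperoxia 4 they were -0.092 and 0.0012. Of the 150-base stretches of their annotated transcripts, 5.99% for H2-Q6 and 5.90% for H2-Q7 also occur in other genes, mainly in each other or H2-Q10, so part of these counts may be shared.

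H2-Q4, with 484, 523, 490.1 and 533 CPM in normoxia and 523, 472, 576 and 227 CPM in hyperoxia, followed H2-K1 instead. Its FPKM was 0.244 to 0.270 of that of H2-K1 in all 8 libraries. The ratio of H2-Q6 to H2-K1 was 0.295 to 0.318 in normoxia and 0.266, 0.256, 0.300 and 0.130 in hyperoxia. H2-Q4 therefore kept its proportion to H2-K1 in hyperoxia 4, where H2-Q6 did not. An antisense gene, Gm11131, overlaps 19.1% of the exon bases of H2-Q4, and whether the counting used strand was not given in the sources used here.

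H2-T23 stood at 188, 207, 193 and 227 CPM in normoxia and at 276, 211, 380.1 and 131 CPM in hyperoxia. H2-T22 stood at 131, 139.9, 146 and 159 CPM in normoxia and at 179.9, 154, 218 and 76.9 CPM in hyperoxia. For these genes hyperoxia 3 was the highest library and hyperoxia 4 the lowest. Without hyperoxia 4, H2-T23 had a log2 fold change of 0.51 (adjusted p 0.0368) and H2-T22 of 0.35 (adjusted p 0.0308), against 0.29 (adjusted p 0.385) and 0.13 (adjusted p 0.718) over all libraries. The antisense gene A930015D03Rik overlaps 29.4% of the exon bases of H2-T22.

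H2-M3 stood at 27.1, 29.1, 30.8 and 29.9 CPM in normoxia and at 27.8, 22.2, 26.3 and 14.8 CPM in hyperoxia. The log2 fold change of H2-M3 was -0.36 (SE 0.159, adjusted p 0.101), and only hyperoxia 1 reached the normoxia range. Without hyperoxia 1 the value was -0.47 with an adjusted p of 0.0435. H2-T24 stood at 36.6, 35.2, 32.0 and 42.7 CPM in normoxia and at 40.6, 34.4, 42.0 and 19.9 CPM in hyperoxia (log2 fold change -0.098, adjusted p 0.728). H2-Q10 ranged from 0.832 CPM in hyperoxia 4 to 6.68 CPM in hyperoxia 1, and H2-M5 from 1.40 to 2.38 CPM.

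The genes of peptide supply shared the low value of hyperoxia 4, and 5 of these 6 genes, all but Tapbp, were highest in hyperoxia 1. Tap1 and Tap2 form the peptide transporter, and Tapbp encodes tapasin, which holds the heavy chain at it. Tap1 (ENSMUSG00000037321, chromosome 17, 34187553 to 34197225) stood at 179, 200.1, 205 and 235 CPM in normoxia and at 474, 218, 296 and 98.7 CPM in hyperoxia. Hyperoxia 1 lay above every other library and hyperoxia 4 below every other library. The log2 fold change was 0.41 (SE 0.348, adjusted p 0.395), and without hyperoxia 4 it was 0.69 (adjusted p 0.0326).

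Tap2, the partner of Tap1, stood at 103, 112, 105 and 119 CPM in normoxia and at 133, 97.4, 117 and 77.6 CPM in hyperoxia. Its range was narrower than that of Tap1, with a log2 fold change of -0.045 (adjusted p 0.825). The ratio of Tap1 to Tap2 in FPKM was 1.199 to 1.360 in normoxia and 2.46, 1.55, 1.75 and 0.878 in hyperoxia. Tapbp stood at 260.3, 245, 268 and 283 CPM in normoxia and at 336, 266, 371 and 204 CPM in hyperoxia. Its log2 fold change was 0.16 (adjusted p 0.457) over 8 libraries and 0.30 (adjusted p 0.0474) without hyperoxia 4.

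Psmb8, Psmb9 and Psmb10 encode the catalytic subunits of the immunoproteasome, which take the place of the constitutive Psmb5, Psmb6 and Psmb7. Psmb8 stood at 75.1, 78.2, 82.6 and 83.5 CPM in normoxia and at 106, 75.1, 90.7 and 45.5 CPM in hyperoxia. Psmb9 stood at 64.6, 64.0, 72.8 and 78.7 CPM and at 107, 58.3, 81.8 and 28.2 CPM. Psmb10 stood at 95.2, 85.5, 112 and 104 CPM and at 124, 87.8, 117 and 68.2 CPM. All 3 were highest in hyperoxia 1 and lowest in hyperoxia 4, and their log2 fold changes were between -0.028 and 0.0020 (adjusted p 0.953 to 0.994).

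The ratio of Psmb9 to Psmb6 in FPKM was 0.554, 0.592, 0.576 and 0.667 in normoxia and 0.781, 0.451, 0.655 and 0.225 in hyperoxia. For Psmb8 to Psmb5 it was 0.526 to 0.692 in normoxia and 0.684, 0.451, 0.604 and 0.285 in hyperoxia. Of the 14 constitutive subunits of the 20S proteasome, 4 were higher (Psma2, Psma3, Psma4 and Psmb7) and 0 were lower by edgeR. That share was 28.6%, beside 35.6% of all tested genes in either direction. At an unadjusted p under 0.05, 6 were higher and 0 were lower. Hyperoxia 4 was the lowest library in 0 of these 14. Psmb4, Psmb1 and Psma7, the most abundant of them, stood at 112 ± 4.37, 96.2 ± 2.77 and 95.1 ± 3.42 CPM in hyperoxia (SD, n = 4).

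**Figure D2:**
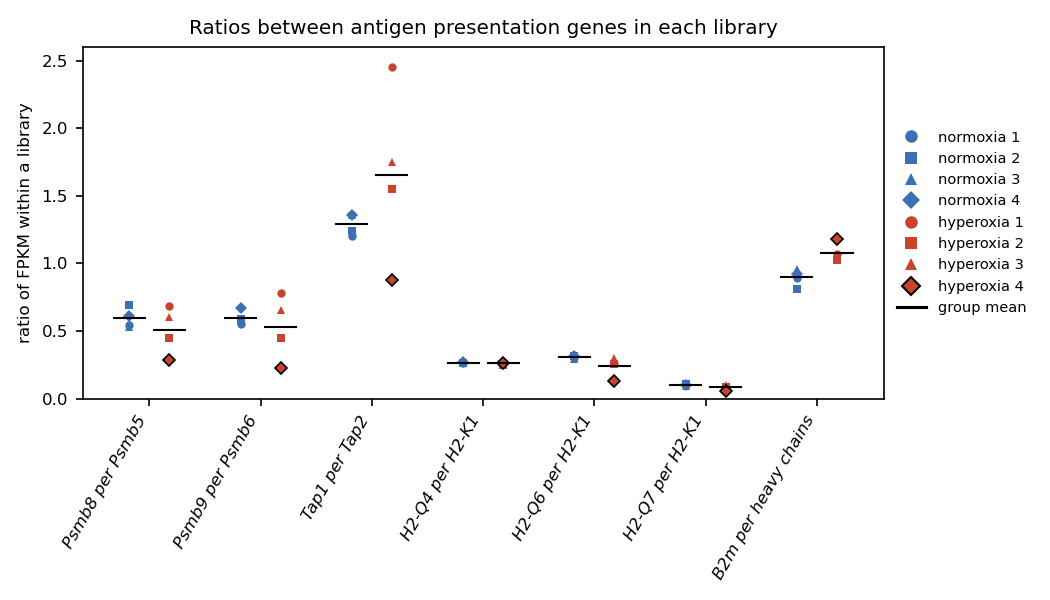
FPKM ratios within each library between immunoproteasome and constitutive subunits, between the TAP chains, between heavy chains, and of B2m to the summed heavy chains, with group means as bars. H2-Q4 per H2-K1 is level at 0.244 to 0.270, Tap1 per Tap2 runs from 0.878 in hyperoxia 4 to 2.46 in hyperoxia 1, and B2m per heavy chains separates the groups.

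Nlrc5 (ENSMUSG00000074151, chromosome 8, 94434356 to 94527272), the class I transactivator, ranged widely among the hyperoxia libraries. It stood at 54.9, 67.9, 76.3 and 96.7 CPM in normoxia and at 211, 71.5, 116 and 22.6 CPM in hyperoxia. Relative to the normoxia mean, hyperoxia 1 lay at 1.54 and hyperoxia 4 at -1.66 on the log2 scale. The log2 fold change was 0.51 (SE 0.487, adjusted p 0.453), with a 95% interval from -0.57 to 1.58.

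Without hyperoxia 4, 5 of the 19 class I genes were higher (B2m, H2-T22, H2-T23, Tap1 and Tapbp), beside 15.8% of all genes in that fit. The calls of these 5 genes thus rested on whether hyperoxia 4 was included. All 5 had log2 fold changes above 0 over the 8 libraries as well, between 0.073 and 0.41.

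**Figure D3:**
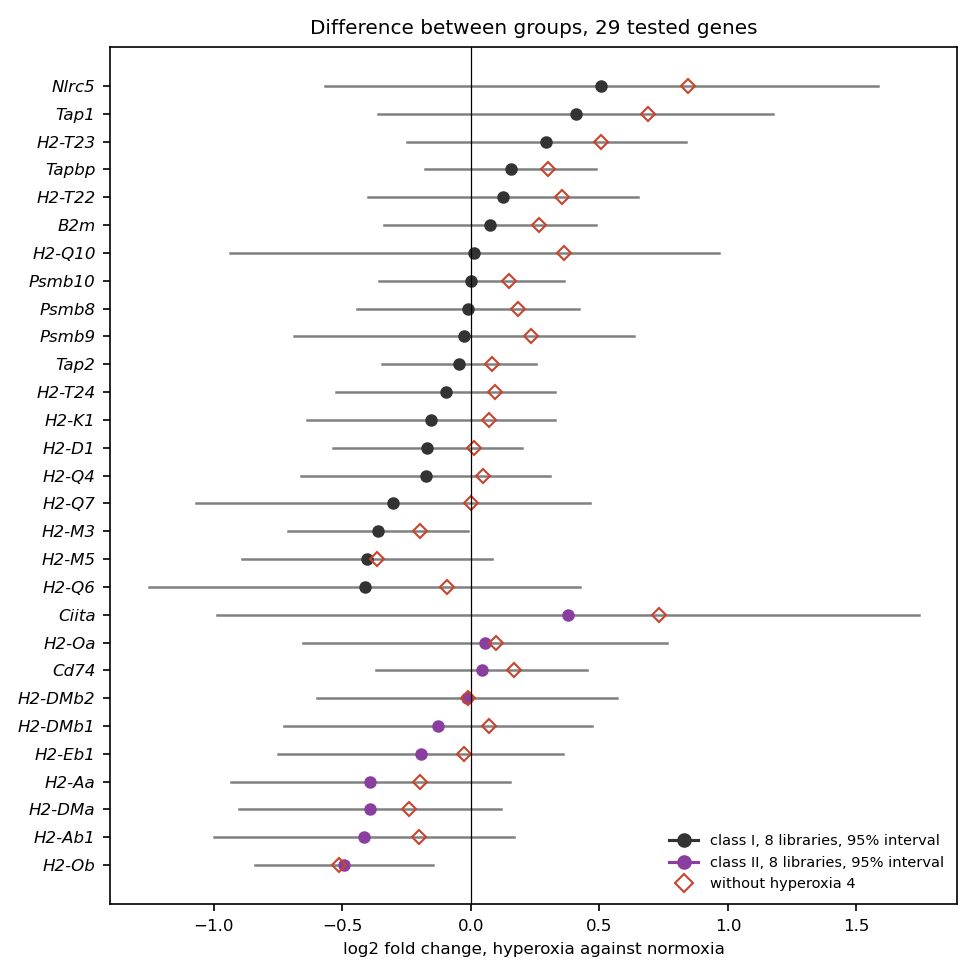
Log2 fold change of the 29 tested members with 95% intervals over the 8 libraries (filled circles, class I in black and class II in purple) and the value without hyperoxia 4 (open diamonds). The intervals of H2-Ob (-0.84 to -0.15) and H2-M3 (-0.71 to -0.010) do not reach 0, and H2-Ob alone passed after adjustment.

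Among the class II genes a single gene passed the test. Of the 10 tested, 0 were higher and 1, H2-Ob, was lower by edgeR, beside 18.5% and 17.1% of all tested genes. At an unadjusted p under 0.05 the counts were also 0 and 1, and both DESeq2 and limma-voom gave 0 higher and 1 lower. The median log2 fold change was -0.16. Hyperoxia 4 was the lowest library in 7 of 10, and the SD of log2 CPM was larger in hyperoxia in 8 of 10, with medians of 0.26 in normoxia and 0.54 in hyperoxia.

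H2-Ob (ENSMUSG00000041538, chromosome 17, 34238903 to 34245907) encodes the beta chain of H2-O, which restrains peptide exchange by H2-DM and is a protein mainly of B cells. It stood at 12.7, 11.4, 17.7 and 11.5 CPM in normoxia and at 11.02, 8.67, 8.30 and 9.93 CPM in hyperoxia. All 4 hyperoxia libraries lay below all 4 normoxia libraries, a separation that 35.4% of all tested genes showed. The log2 fold change was -0.49 (SE 0.157, adjusted p 0.0311). The adjusted p was 0.0661 without normoxia 3, 0.0845 without hyperoxia 2, 0.0746 without hyperoxia 3 and 0.0532 without hyperoxia 4, and it was 0.0585 with the replicate number as a block. Over the 17 alternatives that tested for any change it ran from 0.0142 to 0.0845. H2-Ob was also not called when a minimum absolute log2 fold change of 1 was required.

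The classical class II molecules are dimers of H2-Aa with H2-Ab1, and the chain H2-Eb1 pairs with an E alpha chain that C57BL/6 mice lack. H2-Ab1 (ENSMUSG00000073421, chromosome 17, 34263209 to 34269418) stood at 76.6, 71.5, 82.5 and 88.0 CPM in normoxia and at 67.6, 44.7, 95.02 and 31.4 CPM in hyperoxia. H2-Aa (ENSMUSG00000036594, chromosome 17, 34282744 to 34287827) stood at 55.3, 50.1, 68.0 and 65.9 CPM and at 51.8, 34.7, 69.7 and 26.4 CPM. H2-Eb1 stood at 52.7, 42.1, 61.8 and 47.1 CPM and at 47.7, 31.4, 70.7 and 28.0 CPM. In all 3 genes hyperoxia 3 was the highest of the 8 libraries, hyperoxia 4 the lowest and hyperoxia 2 the next lowest.

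Their log2 fold changes were -0.42 (SE 0.264, adjusted p 0.248), -0.39 (SE 0.246, adjusted p 0.244) and -0.20 (SE 0.252, adjusted p 0.585). The partners of the A dimer moved in step, with an FPKM ratio of H2-Ab1 to H2-Aa of 1.36 to 1.63 over the 8 libraries. Without hyperoxia 3, H2-Ab1 (-0.74, adjusted p 0.0177), H2-Aa (-0.67, adjusted p 0.0236) and H2-DMa (-0.71, adjusted p 0.00442) were lower and H2-Ob was not called. That made 3 of 10 class II genes lower, beside 15.7% of all genes in that fit.

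Cd74 encodes the invariant chain, which fills the class II groove until the endosome. It stood at 196, 152, 242 and 169 CPM in normoxia and at 222, 163, 253 and 142 CPM in hyperoxia, and the groups overlapped over nearly their whole range (log2 fold change 0.042, SE 0.185, adjusted p 0.882). At 133 ± 27.9 and 138 ± 36.4 FPKM (SD, n = 4 each) it was the most abundant class II gene, ahead of H2-Ab1 at 48.3 ± 4.47 and 36.3 ± 17.0 FPKM. The FPKM ratio of Cd74 to H2-Aa was 3.41 to 4.72 in normoxia and 5.70, 6.26, 4.83 and 7.14 in hyperoxia, so the groups lay apart in it. This ratio was computed after the levels had been seen and was not tested.

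Ciita (ENSMUSG00000022504, chromosome 16, 10480059 to 10528418), the class II transactivator, had the largest SD of log2 CPM of the 29 tested members in hyperoxia. It stood at 17.1, 19.5, 18.1 and 23.0 CPM in normoxia and at 67.0, 9.85, 19.98 and 4.33 CPM in hyperoxia. On the log2 scale hyperoxia 1 lay at 1.77 and hyperoxia 4 at -2.04 relative to the normoxia mean. The log2 fold change was 0.38 (SE 0.617, adjusted p 0.672), and it was -0.77 without hyperoxia 1 and 0.73 without hyperoxia 4. In hyperoxia 1 the other tested class II genes lay between -0.39 (H2-DMa) and 0.50 (H2-Oa) relative to the normoxia mean, with H2-Ab1 at -0.23, H2-Aa at -0.19 and Cd74 at 0.25.

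H2-DMa and H2-DMb1 encode H2-DM, the editor that exchanges peptides on class II molecules. H2-DMa stood at 11.6, 9.96, 12.0 and 11.2 CPM in normoxia and at 8.39, 6.46, 13.6 and 5.71 CPM in hyperoxia, again with hyperoxia 3 on top and hyperoxia 4 at the bottom (log2 fold change -0.39, adjusted p 0.215). Exons of Brd2 on the other strand overlap 10.4% of its exon bases. H2-DMb1 ranged from 4.77 CPM in hyperoxia 4 to 12.6 CPM in normoxia 3, H2-DMb2 from 3.59 to 8.39 CPM, and H2-Oa from 0.735 to 1.88 CPM, with log2 fold changes of -0.13, -0.015 and 0.056.

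**Figure D4:**
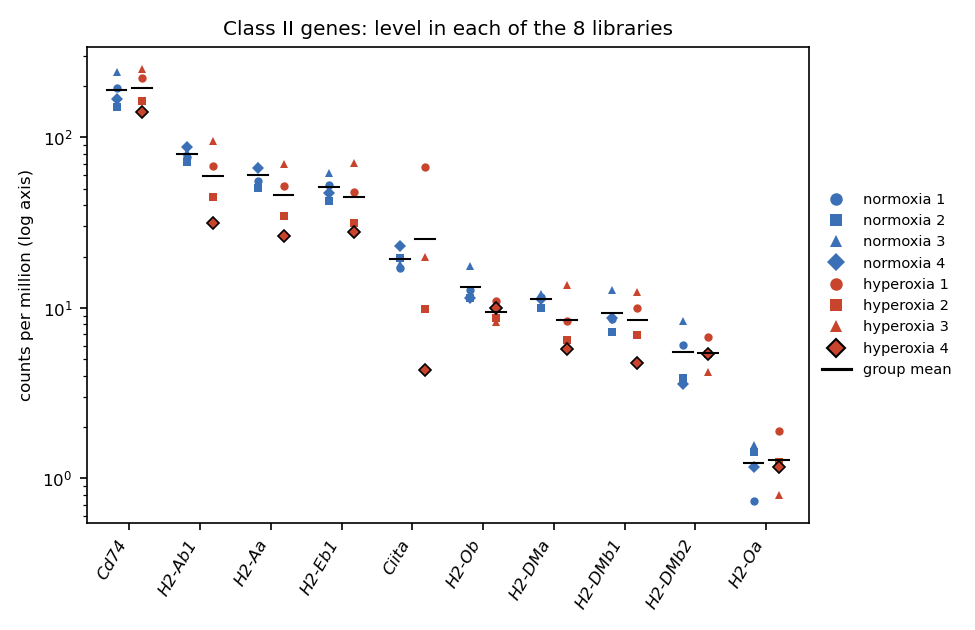
Level of the 10 tested class II genes in each library, in CPM on a log axis, with normoxia in blue, hyperoxia in red and the group mean as a bar. The hyperoxia points of Ciita run from 4.33 CPM in hyperoxia 4 to 67.0 CPM in hyperoxia 1, while those of H2-Ob, at 8.30 to 11.02 CPM, all lie below the normoxia points.

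Markers of the cells that make most class II protein were present in these libraries despite the CD45 step. The 6 leukocyte markers summed to 340.1 to 497 CPM in normoxia and 305 to 439 CPM in hyperoxia, and 1 of 6 (Lcp1) was lower. The most abundant of them were Lcp1 (267 ± 13.3 and 203 ± 18.9 CPM), Coro1a (43.3 ± 19.0 and 43.9 ± 12.9 CPM) and Ptprc, which encodes CD45 (38.4 ± 16.5 and 38.3 ± 13.1 CPM, SD, n = 4 each). The 6 B cell markers summed to 115 to 271 CPM in normoxia, highest in normoxia 3, and to 140.4 to 242 CPM in hyperoxia, and none of the 6 passed the edgeR test (0 at an unadjusted p under 0.05). Hyperoxia 4, with the lowest H2-Ab1, held 183 CPM of B cell markers and 320 CPM of leukocyte markers, both within the range of the other libraries. Lcp1 made up most of the leukocyte sum, which therefore says little about the other leukocyte markers. Taken singly, 1 of the 6 leukocyte markers and 0 of the 6 B cell markers were lowest in hyperoxia 4.

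Of 7 macrophage and monocyte markers 3 were higher and 1 was lower, with sums of 163 to 299.6 CPM and 219.9 to 479 CPM. Of the dendritic cell markers 3 of 6 were tested, 1 higher and 1 lower, and Cd209a, Xcr1 and Batf3 were near 0. The 6 dendritic cell markers summed to 109.9 to 122 CPM in normoxia and 98.3 to 102.0 CPM in hyperoxia, without overlap and lowest in hyperoxia 4. The sum does not stand for each marker. The 3 tested ones had log2 fold changes from -0.27 to 1.18, with a median of 0.84. Hyperoxia 4 was the lowest library in 0 of these 3. The 6 markers of T and NK cells summed to 5.47 to 16.6 CPM in normoxia and 3.38 to 10.96 CPM in hyperoxia, lowest in hyperoxia 4, and 0 of 6 passed (0 at an unadjusted p under 0.05). Taken singly, 4 of these 6 were lowest in hyperoxia 4, beside 13.6% of all tested genes. In 5 of the 6, hyperoxia 4 lay at least 0.5 on the log2 scale below the normoxia mean. Hyperoxia 4 stood within the range of the other hyperoxia libraries in alveolar type 2 markers (2120.0 CPM) and in summed EC markers (14116 CPM). The EC sum does not stand for each of its 8 markers, of which 2 were lowest in hyperoxia 4. General capillary markers were lower in 4 of 5, with sums of 6794 to 7980 CPM in normoxia and 5035 to 5795 CPM in hyperoxia. Hyperoxia 4 was the lowest library in 4 of these 5 and had the lowest sum, 5035 CPM, next to 5039.7 CPM in hyperoxia 1. Higher in hyperoxia were 5 of 5 aerocyte markers, 5 of 5 alveolar type 1 markers, 3 of 4 tested fibroblast markers, 4 of 5 mural cell markers and 2 of 4 tested airway markers, and hyperoxia 4 was the lowest library for 0 of the genes of each of these lists. The part of these cells, and of the low Xist count of hyperoxia 4, in the class I and class II levels was not tested.

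Most interferon-inducible genes were lowest in hyperoxia 4, as most members were, and highest in hyperoxia 1. Of 20 such genes, 2 were higher by edgeR (Cxcl9 and Cxcl10) and 0 were lower, a share of 10% beside 35.6% of all tested genes. At an unadjusted p under 0.05, 6 of the 20 interferon-inducible genes were higher and 0 were lower. Their median log2 fold change was 0.77. Hyperoxia 1 was the highest library in 17 of 20 and hyperoxia 4 the lowest in 18 of 20, each beside 13.6% of all tested genes. The summed level was 977, 1241, 1207 and 1655 CPM in normoxia and 5004, 1170.1, 1853 and 496 CPM in hyperoxia. Gbp4, the most abundant of them, is an interferon-induced GTPase and stood at 294, 360.0, 321 and 438 CPM in normoxia and at 1261, 309, 436 and 145 CPM in hyperoxia. Iigp1 (145 to 812 CPM in hyperoxia 1 to 3, 47.4 CPM in hyperoxia 4) and Gbp2 (90.8 to 498 CPM and 51.9 CPM) had the same order of libraries at both ends. The part of an interferon response in the levels of the MHC genes was not tested.

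**Figure D5:**
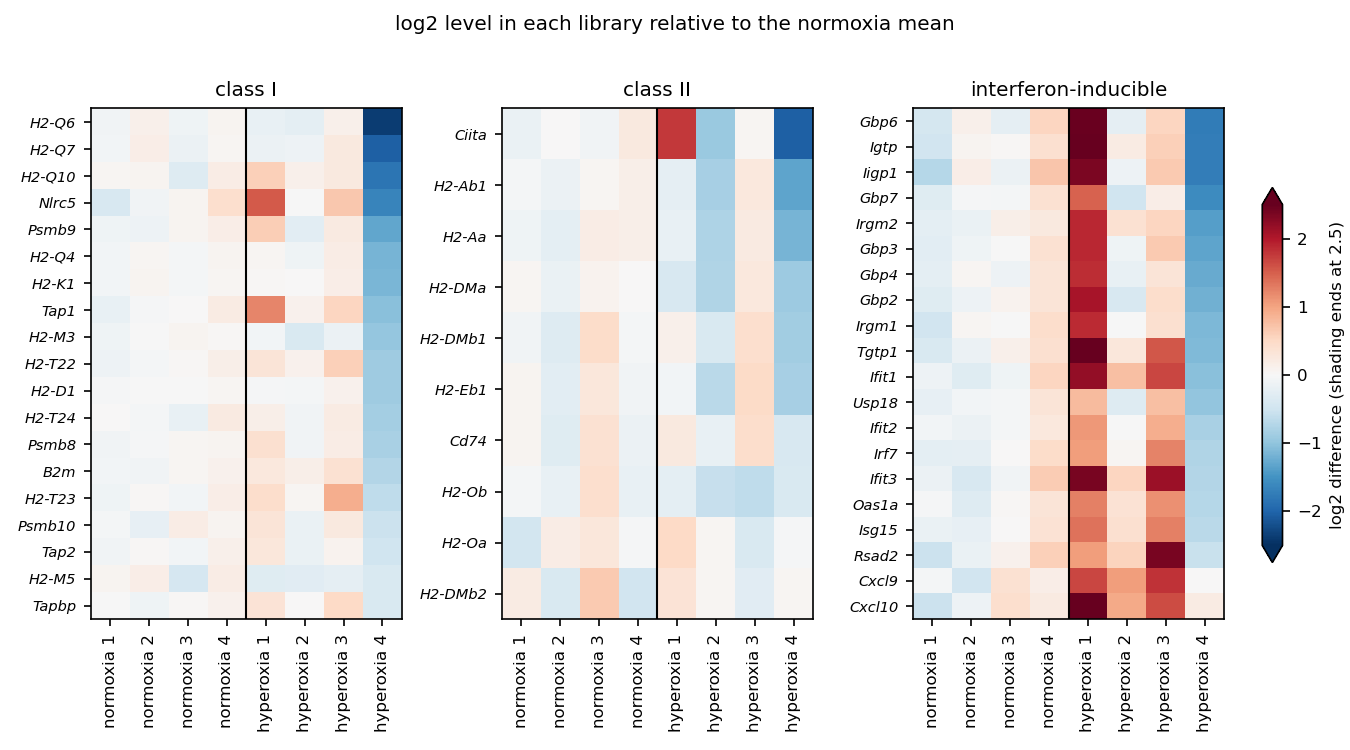
Log2 difference from the normoxia mean for each tested class I gene, class II gene and interferon-inducible gene (rows) in each library (columns), red above and blue below, with shading that ends at 2.5. The hyperoxia 4 column is blue for nearly all rows, down to -2.38 for H2-Q6, and the hyperoxia 1 column is red for Nlrc5, Tap1, Ciita and the interferon-inducible genes but pale for most heavy chains and class II chains.

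Of 22 tested genes that transcribe the MHC or carry interferon signals, 1 was higher (Rela) and 7 were lower (Nfkb1, Ifngr1, Nfya, Nfyb, Nfyc, Creb1 and Jak2), a share of 36.4% beside 35.6% of all tested genes. Hyperoxia 4 was the lowest library in 12 of the 22 and hyperoxia 1 the highest in 7, with both in 6. Nfkb1 went from 257 ± 7.14 to 190.4 ± 5.06 CPM (SD, n = 4 each), with no overlap between the groups and a log2 fold change of -0.43 (edgeR adjusted p 2.51e-05). Irf1, which encodes an interferon-induced activator of class I promoters, stood at 305, 426, 319 and 424 CPM in normoxia and at 610.2, 368, 399 and 272 CPM in hyperoxia (adjusted p 0.587). Jak1 had 301 ± 12.7 and 277 ± 3.22 CPM (adjusted p 0.0538).

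Of 12 other genes of class I loading and trimming, 4 were higher (Canx, Psme3, Pomp and Sec61a1) and 0 were lower, 33.3% beside 35.6% of all tested genes, with 5 higher and 0 lower at an unadjusted p under 0.05. Calreticulin (Calr) had 572 ± 26.3 and 575 ± 37.8 CPM, Pdia3 433 ± 28.5 and 479 ± 13.2 CPM (adjusted p 0.0558), and calnexin (Canx) was higher, with 293 ± 16.1 and 344 ± 9.39 CPM (SD, n = 4) and an adjusted p of 0.00448 for a log2 fold change of 0.23. Of 11 other genes of class II processing, 4 were higher (Ctsb, Ctsd, Ctsl and Cd82) and 0 were lower, 36.4% of them, with 4 higher and 1 lower at an unadjusted p under 0.05. These lysosomal proteases rose with log2 fold changes of 0.36 for Ctsb, 0.58 for Ctsd and 0.36 for Ctsl, and hyperoxia 4 was the lowest library in 0 of the 11 genes.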

How the data were processed

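RNA of lung ECs was sequenced as paired ends of 150 bases in 8 libraries, 4 per group by the sample titles. The authors deposited whole-number gene counts and FPKM (count scaled by gene length and library total) for the same 54532 genes. The submitters' processing notes name HISAT2 2.0.5, featureCounts 1.5.0-p3 and mm10, while the use of strand and of reads that match several genes was not given in the sources used here. FPKM equalled count over length and library total within a factor of 0.974 to 1.01 per library.

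Counts were tested with edgeR 4.0.16 (TMM, filterByExpr, quasi-likelihood, group as the only term) in R 4.3.3, with Benjamini-Hochberg adjustment over 15564 genes and a threshold of 0.05. SEs follow from the F statistic. On simulated counts the test called 74 of 96 genes changed by 1 on the log2 scale and 96 of 96 changed by 2. Those genes were drawn from all tested genes, whose median SD of log2 CPM in hyperoxia was 0.12. For the tested class I members it was 0.61, so these shares do not carry over to them. Libraries of a group differed by more than counting noise (chi-square per degree of freedom 5.08 to 17.9). Alternatives were RLE and upper quartile scaling, other filters, DESeq2 1.42.0, limma-voom and limma 3.58.1 on log2(FPKM + 1) and log2(FPKM + 0.1), a minimum absolute log2 fold change of 1, the replicate number as a block, and leaving out each library. Members and lists were chosen with earlier results of these data known. Values per library are given for members of at least 10 CPM and the transactivators, and of each list for its 3 most abundant genes. GENCODE M21 served for overlaps; 33 of 44 members have the same coordinates there. RefSeq promoters are credited to GRCm38.p6.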

Additional observations from a re-analysis of the deposited data

Results flagged for a closer look

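H2-K1 in hyperoxia 4 was taken up because it lay far from the other libraries of its group. It stood at 866.3 CPM, while hyperoxia 1 to 3 stood at 1940 to 2155 CPM, and the gap to the nearest library took 0.833 of the range of the group, above the share that chance exceeds in 1 of 20 groups of 4. Of 58 groups of 4 values examined, this was 1, where chance gives 2.9 if the groups are independent. The groups come from the same 8 libraries, so this count cannot decide whether the value arose by chance. The limit is also hard to pass where another library widens the range. For Tap1, for instance, hyperoxia 1 stood at 474 CPM and hyperoxia 4 at 98.7 CPM. All other class I genes except H2-M5 also had their lowest value in hyperoxia 4, without passing that limit.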

How the results depend on the processing

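The number of class I genes called higher was 0 and rose to 1 without the filter and with DESeq2 (H2-Q2) and ran from 0 to 5 with a library left out. The number called lower ran from 0 to 1. For class II genes called lower, the count of 1 fell to 0 with a minimum fold change and with the replicate block, and ran from 0 to 3 with a library left out. Over all genes 5535 calls became 1087 with the minimum fold change and 4526 to 5445 with a library left out. Same-numbered libraries correlated at 0.113, 0.0416, -0.139 and -0.174 across genes, and the labels do not say whether they share more than the number. With that number as a block H2-Ob was at -0.48 (adjusted p 0.0585) and 4792 genes were called.

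Of 488 single-gene values under the alternatives, 419 kept sign and call and 55, from 19 genes, changed sign. Psmb10 was at -0.0205 with upper quartile scaling, -0.0314 with limma-voom, -0.0250 and -0.0259 on log2(FPKM + 1) and log2(FPKM + 0.1), and -0.0273 with the block. H2-Q10 was at -0.0105, -0.32, -0.0398, -0.22 and -0.14 in the same order. H2-DMb2 was at 0.0559 with limma-voom, 0.0295 and 0.0517 on FPKM and 0.0417 with the block, and Ciita at -0.34, -0.0464, -0.26 and -0.21. The cause was not tested.

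With a library left out, log2 fold changes ran from -0.27 to 0.0109 for H2-D1, -0.28 to 0.0688 for H2-K1, -0.0489 to 0.27 for B2m, -0.32 to 0.0462 for H2-Q4, -0.54 to 0.00121 for H2-Q7, -0.0734 to 0.35 for H2-T22, -0.21 to 0.0928 for H2-T24, -0.27 to 0.36 for H2-Q10, -0.00277 to 0.69 for Tap1, -0.17 to 0.0811 for Tap2, -0.0803 to 0.85 for Nlrc5, -0.18 to 0.18 for Psmb8, -0.32 to 0.23 for Psmb9, -0.12 to 0.15 for Psmb10, -0.11 to 0.18 for Cd74, -0.37 to 0.0700 for H2-DMb1, -0.17 to 0.27 for H2-DMb2, -0.19 to 0.22 for H2-Oa and -0.77 to 0.73 for Ciita. No other call changed with the block. With 4 libraries per group the 95% intervals of most members include changes of 0.3 in either direction. For these members a change of that size was neither shown nor excluded.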

Other observations

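Of 8 tested class I-like genes outside the H2 symbols, 3 were higher (Procr, Raet1e and Ulbp1) and 4 were lower (Cd1d1, Fcgrt, Hfe and Mr1) by edgeR, beside 35.6% of all tested genes in either direction, and the groups did not overlap in 6 of 8. Fcgrt, the neonatal Fc receptor that carries immunoglobulin G across ECs, stood at 81.8, 70.6, 82.6 and 72.3 CPM in normoxia and at 47.3, 48.4, 47.4 and 54.3 CPM in hyperoxia (log2 fold change -0.64, adjusted p 5.59e-05). Hfe, a regulator of iron uptake, stood at 72.1 to 82.2 CPM and at 44.1 to 55.3 CPM (log2 fold change -0.61, adjusted p 8.34e-05). Ulbp1, a ligand of the NKG2D receptor of natural killer cells, rose with a log2 fold change of 0.38 (adjusted p 0.0238). Cd1d1, which presents lipids to natural killer T cells and was picked from the list after its values were seen, fell from 55.4 ± 2.82 to 32.7 ± 1.85 CPM (SD, n = 4 each, log2 fold change -0.76, adjusted p 5.68e-06). The values of hyperoxia 4 were the lowest in 2 of these 8 genes.

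Of 6 tested co-stimulation genes, 1 was higher (Cd276) and 0 were lower, a share of 16.7% beside 35.6% of all tested genes. At an unadjusted p under 0.05, 3 were higher and 0 were lower. Cd274, which encodes the inhibitory ligand PD-L1, stood at 19.2, 20.5, 25.6 and 29.9 CPM in normoxia and at 206, 25.1, 55.6 and 14.7 CPM in hyperoxia (log2 fold change 1.66, adjusted p 0.0771), highest in hyperoxia 1 and lowest in hyperoxia 4. Cd40 (45.9 ± 1.49 and 47.3 ± 3.59 CPM) and Icosl (5.47 ± 1.35 and 5.78 ± 0.493 CPM, SD, n = 4 each) overlapped between the groups.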
